A study of Mus musculus with 2 samples.

Results

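The interleukin 1 (IL-1) family and the inflammasome were described across 10 named genes: *Il1a*, *Il1b*, *Il1rn*, *Il18*, *Il1r1*, *Il1r2*, *Il1rap*, *Nlrp3*, *Pycard* and *Casp1*. They were chosen by name, with earlier results from the same arrays known, so their values are a description and were not tested. The 10 genes were 10 of the 18193 genes on the array that had a probe set of their own, and they carried 19 of the 34945 probe sets annotated to a single gene. The study knocked down *Flcn*, the gene for the tumour suppressor folliculin, in RAW264.7, a line of mouse macrophages able to form osteoclasts. One culture was transfected with *Flcn*-targeted siRNA and the other with scramble siRNA, the medium was changed to MEM alpha with serum after 24 h, and total RNA was taken after a further 48 h. The paper's methods for the arrays name no RANKL, the ligand used elsewhere in the study to induce osteoclasts. Each condition was hybridised to 1 Affymetrix GeneChip array of mouse genes, so no difference below has a replicate check and no p-value is given. A gene was counted as changed in size when the signals of its probe set differed by 1.5-fold or more, which is 0.585 on the log2 scale, and this is a rule of size only.

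IL-1 alpha and IL-1 beta are cytokines that bind the IL-1 receptor, whose signalling through MyD88 and IRAK kinases activates NF-kB. IL-1 receptor antagonist, the product of *Il1rn*, occupies the same receptor without signalling. IL-1 beta and IL-18 are made as precursors that caspase-1 cleaves within the inflammasome, an assembly of a sensor such as NLRP3, the adaptor ASC and caspase-1, and IL-1 is known as a cytokine that promotes osteoclast formation.

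The probe sets of *Flcn* read 206 in *Flcn* siRNA cells and 241 in scramble siRNA cells, 145 and 209 at the second, and 7.2 and 8.0 at the third, which was below the median of both arrays. The first was 1.168-fold and the second 1.435-fold lower in *Flcn* siRNA cells, so *Flcn* itself was inside the 1.5-fold limit. *Gpnmb*, which encodes a membrane glycoprotein of macrophages and osteoclasts, read 2500 in *Flcn* siRNA cells and 294 in scramble siRNA cells, 8.50-fold higher. The authors used a rise of *Gpnmb* as a readout of *Flcn* loss. They reported the *Flcn* knockdown itself by quantitative PCR in siRNA-transfected RAW264.7 cells. Median signal was 13.6 for *Flcn* siRNA and 12.8 for scramble siRNA, and the trimmed mean was 100 on both arrays. Ratios were computed after raising any signal under its own array's median to that median, a fold with 1 such signal is given as a lower bound, and none is given when both signals were below it. The probe set of highest mean signal stood for a gene that had several, and 10285 genes had a mean signal above the filter of 13.2. Macrophage markers were present, with 8 of 9 above the filter and a summed signal of 21280 in *Flcn* siRNA cells and 21660 in scramble siRNA cells. Of 20 measured markers of other cell types, 3 passed the filter, *S100a8*, *Epcam* and *Col1a2*, and the 20 summed to 137 and 145, with no T cell, B cell or endothelial marker among those passing.

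Of the 6 genes whose signal passed the filter, only *Il1rn* differed by 1.5-fold or more, and it was higher in *Flcn* siRNA cells. These 6 of the 10 genes were *Il1b*, *Il1rn*, *Il18*, *Il1rap*, *Nlrp3* and *Casp1*, and they had 2 log2 ratios above 0 and 4 below, and a median of -0.12. The count of 1 higher member of 6 stands beside 604 higher genes of the 10285 above the filter, or 5.87%, and the count of 0 lower members beside 570 lower genes, or 5.54%. With each array divided by its median instead, 418 genes were higher and 810 lower, and the members' counts were still 1 and 0. Over all 10285 genes the median log2 ratio was 0.013, with a range of -3.72 to 3.09. As RNA came from whole cultures, fewer cells of a type and less RNA per cell cannot be told apart.

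**Figure D1:**
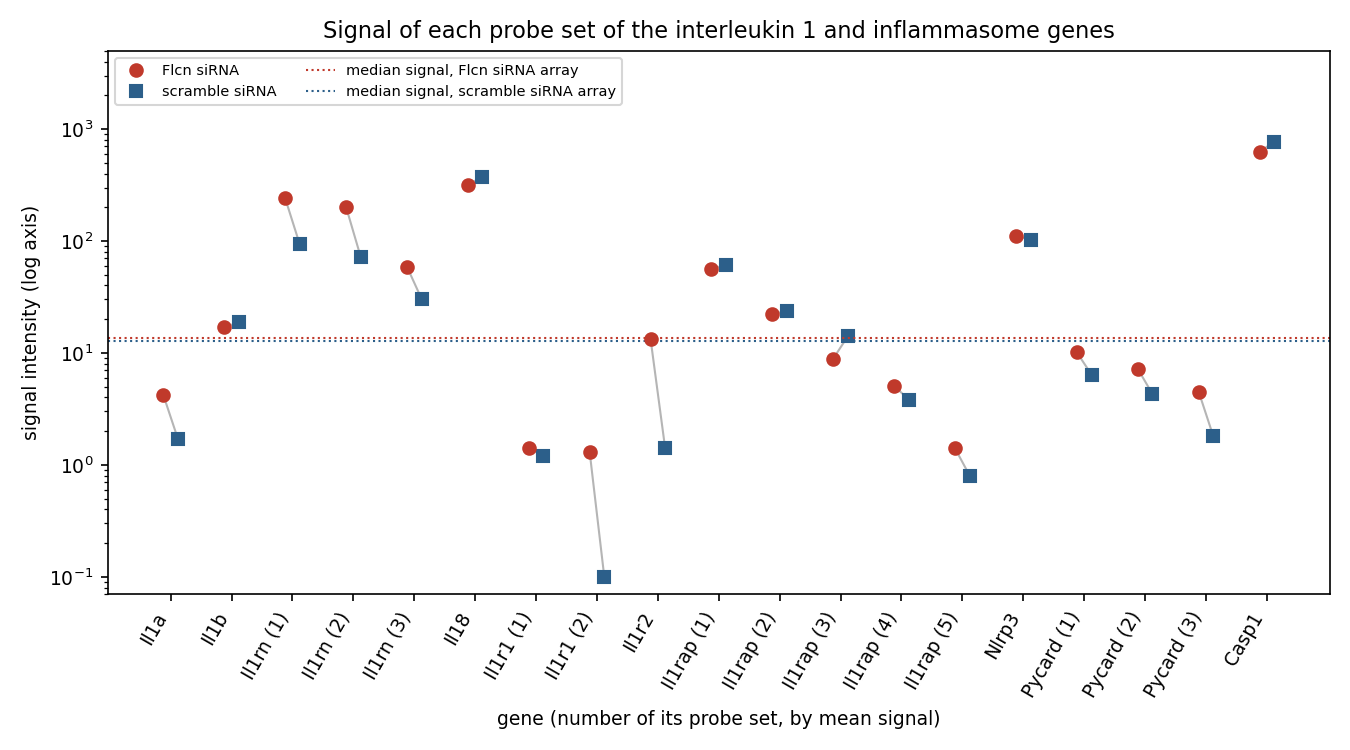
Signal intensity on a log axis for each of the 19 probe sets of the 10 genes, in order of role, with red circles for the *Flcn* siRNA array, blue squares for the scramble siRNA array and dotted lines at the array medians of 13.6 and 12.8. All 3 *Il1rn* probe sets read higher in *Flcn* siRNA cells, both signals of *Il1a*, *Il1r1*, *Il1r2* and *Pycard* lay under the medians, and the pairs of *Il1b*, *Il18*, *Nlrp3* and *Casp1* lay within 1.24-fold.

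The agonists were low in signal, *Il1a* below both array medians and *Il1b* just above them. *Il1a*, which encodes the precursor active without cleavage, read 4.2 in *Flcn* siRNA cells and 1.7 in scramble siRNA cells, both below the array medians, so no fold is given by the rule above. With the 25th percentile of each array as the floor *Il1a* was at least 1.27-fold higher in *Flcn* siRNA cells, below the filter. *Il1b*, the inducible cytokine that caspase-1 matures, read 17.0 in *Flcn* siRNA cells and 18.7 in scramble siRNA cells, a log2 ratio of -0.14. The mean signal of *Il1b* was in the band from 13.2 to 50, in which 24.6% of 2184 genes differed by 1.5-fold or more in either direction.

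*Il1rn*, which encodes the receptor antagonist, was 1.93 to 2.79-fold higher in *Flcn* siRNA cells over its 3 probe sets. The first probe set read 241 in *Flcn* siRNA cells and 93.1 in scramble siRNA cells, a log2 ratio of 1.37 or 2.59-fold. The second read 201 in *Flcn* siRNA cells and 72.2 in scramble siRNA cells, a log2 ratio of 1.48 or 2.79-fold. The third read 58.8 in *Flcn* siRNA cells and 30.4 in scramble siRNA cells, a log2 ratio of 0.95 or 1.93-fold. All 6 signals exceeded the medians of their arrays, so the ratios did not rest on the floor. The probe sets of *Il1rn* are not replicates, since they read the same RNA, and their log2 ratios had an SD of 0.28 (n = 3 probe sets), against a median SD of 0.19 over 5034 genes with more than 1 probe set above the filter. Of 2207 genes with 3 or more probe sets above the filter, 12 had all of them 1.5-fold or more higher, or 0.544%. *Il1rn* is itself among these 12, and the members were chosen with earlier results known, so this share is no test of *Il1rn*. Among the 4051 genes whose mean signal was within 2-fold of that of *Il1rn*, 174 were higher by 1.5-fold or more, or 4.30%. *Il1rn* held place 21 from the highest log2 ratio among the 10285 genes.

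**Figure D2:**
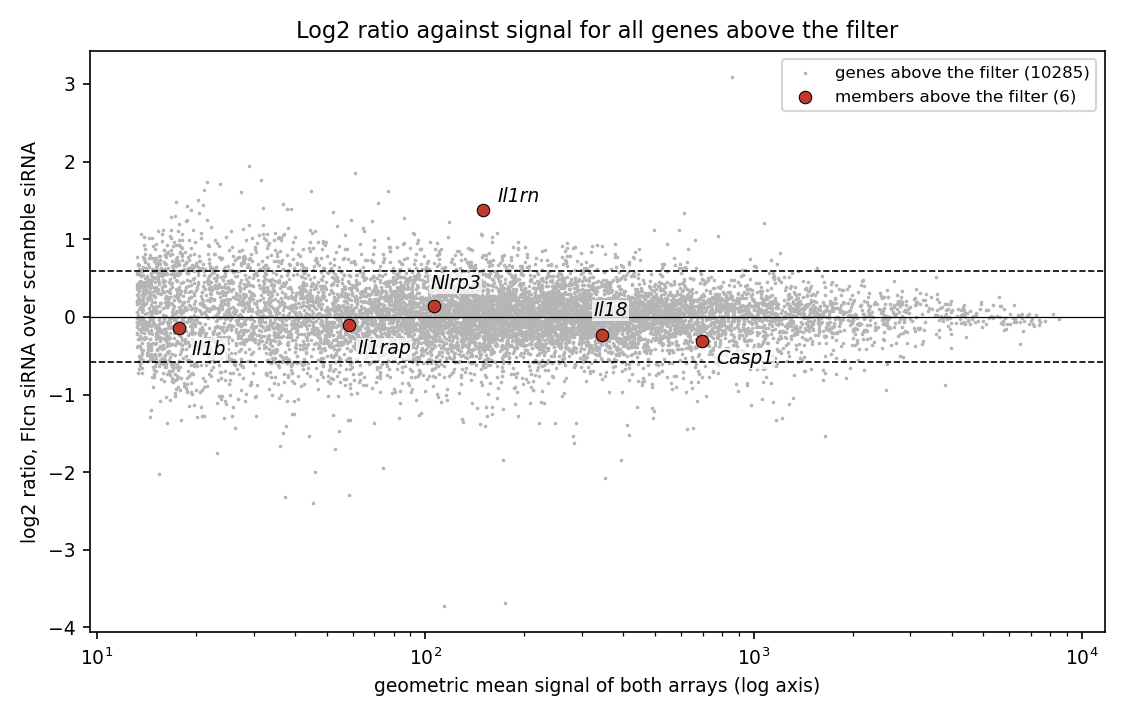
Log2 ratio (*Flcn* siRNA cells over scramble siRNA cells) against the geometric mean signal on a log axis for the 10285 genes above the filter (grey) and the 6 members among them (red), with dashed lines at 1.5-fold. *Il1rn* at 1.37 lies above the upper line and the other members lie between the lines, from -0.31 to 0.14.

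The 3 genes nearest to *Il1rn* in signal on both arrays were *Lrr1*, *Haus8* and *Iqgap3*, by the Euclidean distance over the 2 log2 signals. *Lrr1* read 214 in *Flcn* siRNA cells and 102 in scramble siRNA cells, a distance of 0.21 log2 units. *Haus8*, for a subunit of the augmin complex of the spindle, read 214 in *Flcn* siRNA cells and 104 in scramble siRNA cells (distance 0.23), and *Iqgap3*, for a scaffold protein, read 227 and 112 (distance 0.28). With 2 arrays, nearness in these signals is a likeness of level and ratio only.

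*Il1rn* lies on chromosome 2 among other IL-1 family ligand genes in the order of the RefSeq mouse annotation (GRCm38.p6), and its neighbours there were low in signal. On one side lies *Il1f10*, which encodes IL-38 and read 21.2 in *Flcn* siRNA cells and 20.1 in scramble siRNA cells, a log2 ratio of 0.08. On the other lies *Psd4*, which read 11.2 in *Flcn* siRNA cells and 10.6 in scramble siRNA cells, below the filter. *Il1f5* and *Il1f6*, for the IL-36 receptor antagonist and IL-36 alpha, lie beyond *Il1f10* and were also below the filter, with 17.7 in *Flcn* siRNA cells and 8.4 in scramble siRNA cells for *Il1f6*.

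*Il18*, for a cytokine whose precursor is held ready in macrophages, read 318 in *Flcn* siRNA cells and 374 in scramble siRNA cells, a log2 ratio of -0.23. *Il18* and *Il1rn* thus lay on opposite sides of 0, and the ratio of *Il18* was inside the 1.5-fold limits.

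The receptor genes were low or close to equal in signal. *Il1r1*, for the signalling receptor, read 1.4 in *Flcn* siRNA cells and 1.2 in scramble siRNA cells at one probe set, and 1.3 and 0.1 at the other. All of these signals of *Il1r1* were below the medians. *Il1r2*, for the decoy receptor that binds IL-1 without signalling, read 13.3 in *Flcn* siRNA cells, just under that array's median of 13.6, and 1.4 in scramble siRNA cells. With the 25th percentile of each array as the floor *Il1r2* was at least 4.03-fold higher in *Flcn* siRNA cells, but its mean signal was below the filter, so it entered no count. *Il1rap*, for the accessory chain shared by several receptors of the family, had 2 of 5 probe sets with both signals above the medians. Its first probe set read 56.5 in *Flcn* siRNA cells and 60.9 in scramble siRNA cells, and its second read 22.1 and 23.9, with log2 ratios of -0.11 at both. The next probe set of *Il1rap* read 8.9 in *Flcn* siRNA cells and 14.1 in scramble siRNA cells, and the remaining 2 were below the medians on both arrays.

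Of the inflammasome genes, *Nlrp3*, for the sensor, read 112 in *Flcn* siRNA cells and 101 in scramble siRNA cells, a log2 ratio of 0.14. *Pycard*, for the adaptor ASC, which RAW264.7 cells are known to lack, read 10.1, 7.2 and 4.5 in *Flcn* siRNA cells and 6.4, 4.3 and 1.8 in scramble siRNA cells at its 3 probe sets. All 6 signals of *Pycard* lay below the medians, so no fold is given by the rule above. With the 25th percentile as the floor the first probe set of *Pycard* was 1.58-fold higher in *Flcn* siRNA cells, again below the filter and in no count. *Casp1*, for the protease that cleaves IL-1 beta and IL-18, read 623 in *Flcn* siRNA cells and 773 in scramble siRNA cells, a log2 ratio of -0.31 or 1.24-fold lower.

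*Casp1* had the lowest log2 ratio of the 6 genes above the filter, inside the 1.5-fold limits, and its nearest genes in signal were *Brd2*, *Tmem234* and *Crls1*. *Brd2*, for a bromodomain protein that binds acetylated histones, read 622 in *Flcn* siRNA cells and 774 in scramble siRNA cells, a distance of 0.0025 log2 units. On chromosome 9 the gene next to *Casp1* is *Casp4*, for the caspase that senses intracellular lipopolysaccharide, and *Casp4* read 284 in *Flcn* siRNA cells and 554 in scramble siRNA cells, 1.95-fold lower. *Casp12*, the gene after *Casp4*, read 6.0 in *Flcn* siRNA cells and 9.9 in scramble siRNA cells, below the medians. The log2 ratio was -0.31 for *Casp1*, inside the limits, and -0.96 for its neighbour *Casp4*, outside them.

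The promoters are shown because folliculin restrains the MiT/TFE transcription factors, which bind the E-box CACGTG, and because AP-1, NF-kB and PU.1 act on IL-1 genes in macrophages. The 250 bases before each RefSeq start (GRCm38.p6) were read for all 10 genes, in 14 windows, and both strands were searched for CACGTG, for TCATGTG (an M-box variant), for TGANTCA (AP-1), for GGG and TTTCC with any 2 bases between them (NF-kB), for GAGGAA (the PU.1 core) and for GAAA repeated after any 2 bases (an interferon response element). The 2 *Il1rn* windows with a match are given because *Il1rn* was the member that differed, and those of *Il1r2* and *Casp1* because they held CACGTG. Each runs 5′ to 3′ on the gene's strand with the matches in capitals, from chr2:24336610-24336859 and chr2:24345121-24345370 (*Il1rn*), chr1:40085843-40086092 (*Il1r2*) and chr9:5298267-5298516 (*Casp1*), all on the plus strand.
Il1rn, first start: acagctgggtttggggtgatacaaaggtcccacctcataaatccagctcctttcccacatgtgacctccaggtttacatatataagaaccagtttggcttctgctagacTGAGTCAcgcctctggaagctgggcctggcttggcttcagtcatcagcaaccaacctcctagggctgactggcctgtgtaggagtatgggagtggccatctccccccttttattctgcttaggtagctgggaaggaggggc
Il1rn, later start: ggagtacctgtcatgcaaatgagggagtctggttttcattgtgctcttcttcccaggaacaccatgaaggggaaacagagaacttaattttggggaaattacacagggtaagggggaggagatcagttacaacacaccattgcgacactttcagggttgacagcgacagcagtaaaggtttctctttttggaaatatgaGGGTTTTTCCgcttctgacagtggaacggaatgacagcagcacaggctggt
Il1r2: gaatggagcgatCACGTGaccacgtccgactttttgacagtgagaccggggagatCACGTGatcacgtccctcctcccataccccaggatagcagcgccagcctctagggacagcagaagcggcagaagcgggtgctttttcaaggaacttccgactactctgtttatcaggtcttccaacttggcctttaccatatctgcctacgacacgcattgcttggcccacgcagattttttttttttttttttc
Casp1: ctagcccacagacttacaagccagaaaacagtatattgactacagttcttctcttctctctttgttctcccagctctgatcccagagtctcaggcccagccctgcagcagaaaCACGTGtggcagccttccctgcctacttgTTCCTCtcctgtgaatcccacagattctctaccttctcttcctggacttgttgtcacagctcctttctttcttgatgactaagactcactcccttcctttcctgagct

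In the first *Il1rn* window the capitals mark an AP-1 match, TGAGTCA, beginning 141 bases before the start. The other *Il1rn* window shown holds an NF-kB match 51 bases before its start, and the window of a further *Il1rn* start, which overlaps it, held no match of its own. Over all 32851 windows of the same length, 6.75% held the AP-1 letters and 1.41% the NF-kB letters. CACGTG was found in 2 of the 10 genes, at 238 and 195 bases before the start of *Il1r2* and at 137 bases before that of *Casp1*, and in 6.02% of all windows. The *Casp1* window also held the PU.1 core on the opposite strand, 108 bases before the start, and 4 of the 10 genes held that core, as did 23.3% of all windows. TCATGTG was found in 1 gene, *Il1r1*, and in 3.25% of all windows, the AP-1 letters were also found in *Il1a*, and the interferon element was found in none of the 10 genes and in 2.98% of all windows. *Il1b*, *Il18* and *Il1rap* had no match to any of the 6 motifs, which says only that these letters are not in those windows, and no 2 matches overlapped. The counts above are of genes, and the 10 genes had 14 windows between them, while the percentages are of windows. A count of genes is therefore not directly comparable with those percentages. A match describes the letters and does not show that a factor binds there.

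The other genes of the pathway were described by 8 lists with 113 genes, of which 74 were above the filter, 35 with log2 ratios above 0 and 39 below. Of the 74 genes 9 were higher and 6 lower by 1.5-fold or more, with a median of -0.0093, beside the shares of 5.87% and 5.54% over all genes. With each array divided by its median 5 were higher and 8 lower, so the balance of the list turned with the scaling. Of the remaining 39 genes 26 were below the filter and 13 had no probe set of their own. Of the other ligands and the IL-18 binding protein 1 of 7 genes was above the filter, *Il1f10*, and *Il33* and *Il18bp* were below the medians on both arrays. Of the other receptors of the family 2 of 7 were above it. *Sigirr*, for a receptor that dampens IL-1 and Toll-like receptor signalling, read 34.1 in *Flcn* siRNA cells and 57.8 in scramble siRNA cells, a log2 ratio of -0.76. Its mean signal was in the band from 13.2 to 50, like that of *Il1b*.

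Signalling directly below the IL-1 receptor had 16 of 19 genes above the filter and none past 1.5-fold, with a median log2 ratio of -0.04. The highest was *Ecsit*, for a TRAF6 adaptor, with 248 in *Flcn* siRNA cells and 177 in scramble siRNA cells (0.49), and the lowest was *Map3k3*, for a kinase upstream of NF-kB, with 163 and 213 (-0.38). *Myd88*, for the adaptor of the receptor, read 465 in *Flcn* siRNA cells and 499 in scramble siRNA cells. *Traf6*, for the ubiquitin ligase that the kinases engage, had a log2 ratio of -0.08 at its brightest probe set and 0.81 at another, past the limit. The NF-kB list had 2 of 13 genes higher and 1 lower, beside 5.87% higher and 5.54% lower over all genes. These counts use the brightest probe set of each gene. Another probe set was past the limit for *Nfkbia* (log2 ratio 0.64), *Nfkbiz* (-0.67) and *Ikbkg* (-0.59), which were not counted. *Rel*, for the NF-kB subunit c-Rel, read 46.4 in *Flcn* siRNA cells and 22.1 in scramble siRNA cells, 2.10-fold higher. *Rel* had 1 probe set, with a mean signal from 13.2 to 50, the band in which 24.6% of genes differed by 1.5-fold or more either way. *Tnfaip3*, for A20, an inhibitor of NF-kB signalling, read 152 in *Flcn* siRNA cells and 93.6 in scramble siRNA cells, a log2 ratio of 0.70. *Nfkbib*, for the inhibitor I-kappa-B beta, read 147 in *Flcn* siRNA cells and 269 in scramble siRNA cells, a log2 ratio of -0.87.

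Among the other inflammasome sensors 5 of 13 genes were above the filter, 1 higher and 1 lower, beside 5.87% and 5.54% over all genes. *Aim2*, a sensor of cytosolic DNA, read 53.9 in *Flcn* siRNA cells and 34.7 in scramble siRNA cells, a log2 ratio of 0.64. The mean signal of *Aim2* was also in the band from 13.2 to 50. *Naip6*, of the NAIP family that senses bacterial proteins, read 48.9 in *Flcn* siRNA cells and 81.2 in scramble siRNA cells, a log2 ratio of -0.73. *Naip6* has close relatives, and its probe set may also bind their RNA. In the list of inflammatory caspases and pyroptosis genes 5 of 6 were above the filter, and *Casp4* was the 1 past 1.5-fold by the brightest probe set. *Ninj1* had a log2 ratio of -0.0097 at its brightest probe set and 0.59 at another, past the limit. *Gsdmd*, for the pore protein of pyroptosis, read 298 in *Flcn* siRNA cells and 322 in scramble siRNA cells, and *Casp8*, for a caspase that can also cleave IL-1 beta, read 548 and 531.

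Of the inflammasome regulators and IL-1 processing genes 18 of 26 were above the filter, with 1 higher and 1 lower, beside 5.87% and 5.54% over all genes. Probe sets other than the brightest were past the limit for *Txnip* (log2 ratio 0.72), *Cflar* (-0.75) and *Sting1* (-0.60), which were not counted. The probe sets of the higher gene disagreed in direction, while those of the lower gene were both below 0, with 1 inside the limit. *Capn1*, for a calpain, the protease family that processes IL-1 alpha, read 87.8 in *Flcn* siRNA cells and 52.8 in scramble siRNA cells (log2 ratio 0.73), while its other probe set gave -0.032. *Trim30a*, for a regulator of Toll-like receptor and NLRP3 responses in mouse, read 38.2 in *Flcn* siRNA cells and 68.7 in scramble siRNA cells (-0.85), with -0.36 at its other probe set. *P2rx7*, for the ATP receptor that triggers NLRP3, read 119 in *Flcn* siRNA cells and 112 in scramble siRNA cells.

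The list of inflammatory genes that respond to IL-1 and NF-kB had 14 of 20 genes above the filter, with 5 higher, all chemokines, and 1 lower, and a median log2 ratio of 0.087, beside 5.87% higher and 5.54% lower over all genes. *Ccl3* read 1274 in *Flcn* siRNA cells and 814 in scramble siRNA cells (log2 ratio 0.65), and *Ccl4* read 362 and 209 (0.79). *Ccl2* read 32.7 in *Flcn* siRNA cells and 21.7 in scramble siRNA cells, at the edge of the limit with 0.59. *Cxcl1* was at least 1.75-fold higher, with 22.4 in *Flcn* siRNA cells and 8.8 in scramble siRNA cells, and *Ccl5* at least 1.55-fold higher, with 19.8 and 10.0. The higher genes were thus 4 CC chemokines and the neutrophil attractant *Cxcl1*, of which *Ccl2*, *Ccl5* and *Cxcl1* had a signal below 50 on both arrays. The remaining chemokine of the list, *Cxcl2*, went the other way inside the limit. It read 359 in *Flcn* siRNA cells and 439 in scramble siRNA cells, a log2 ratio of -0.29. In the band of mean signal from 13.2 to 50, 321 of 2184 genes were higher, a larger share than over all genes. Of the 5 higher chemokines only *Ccl4* was past 1.5-fold under every other scaling, floor and choice of probe set run. With each array divided by its median *Ccl2* (0.50), *Ccl3* (0.56) and *Ccl5* (0.54) were inside it. With the mean of all probe sets *Cxcl1* (0.27) was, a mean that counts probe sets with both signals under the medians as 0. Of the 3 *Cxcl1* probe sets 1 was above the filter, of a type that may also bind other RNA. With only probe sets unique to 1 transcript *Cxcl1* was below the filter and had no value. *Ptgs2*, for cyclooxygenase-2, was the lower gene, with 33.7 in *Flcn* siRNA cells and 80.7 in scramble siRNA cells, a log2 ratio of -1.26. *Tnf* read 267 in *Flcn* siRNA cells and 241 in scramble siRNA cells, and *Il6* was below the medians on both arrays. *Cebpd*, which was not counted, had a log2 ratio of -0.18 at its brightest probe set and 0.63 at another, past the limit.

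**Figure D3:**
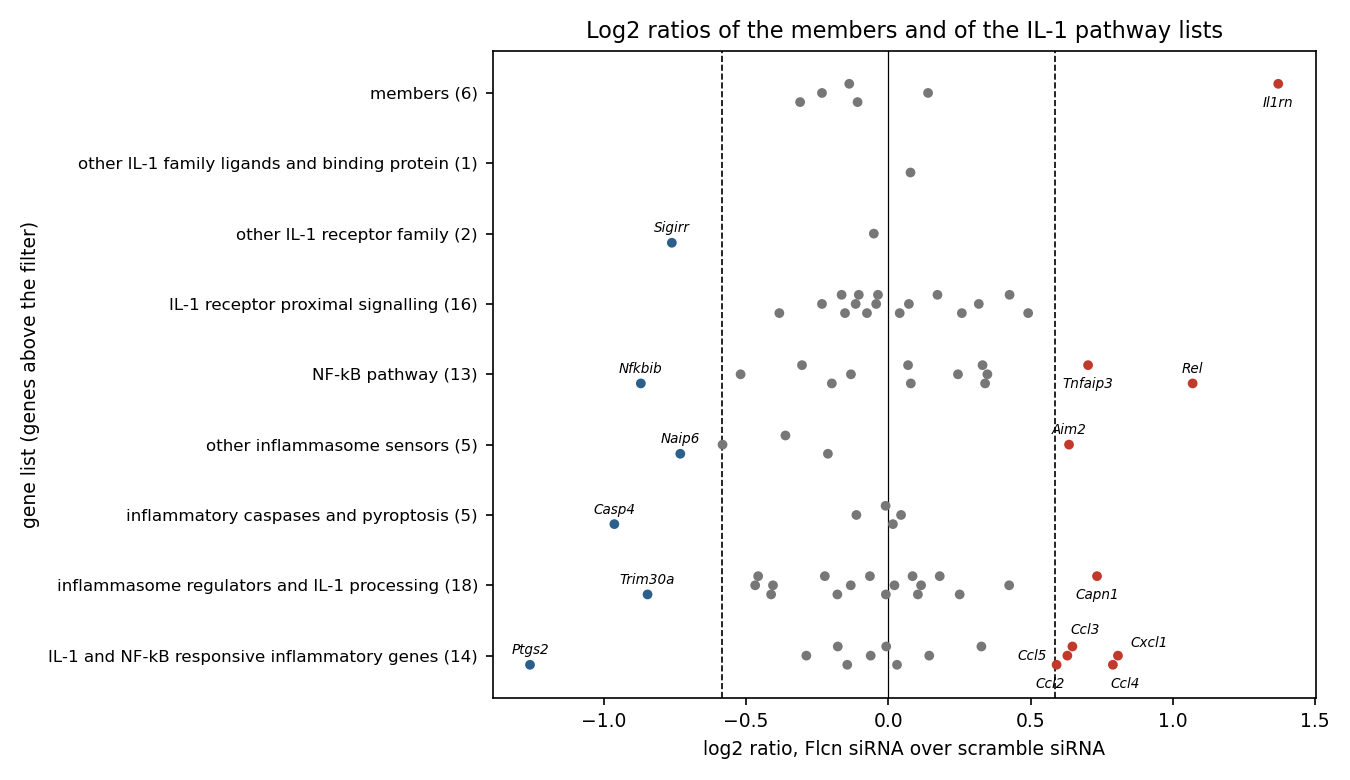
Log2 ratios (*Flcn* siRNA cells over scramble siRNA cells) for the 6 members and the 74 other pathway genes above the filter, by list, with dashed lines at 1.5-fold. Red points are the 9 pathway genes and *Il1rn* that were higher, blue points the 6 that were lower, and the points of all 16 signalling genes, 1 probe set each, lie between the lines.

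Cell type markers that moved were *Fcgr1*, for a macrophage Fc receptor, with 380 in *Flcn* siRNA cells and 1033 in scramble siRNA cells (log2 ratio -1.44), and the neutrophil marker *S100a8*, with 27.5 and 11.3, at least 2.15-fold higher. *S100a8* had 1 probe set, with a mean signal in the band from 13.2 to 50, in which 24.6% of genes differed by 1.5-fold or more. The other neutrophil markers measured were below the medians on both arrays. *S100a9* read 1.2 on each array, and *Mpo* read 5.6 in *Flcn* siRNA cells and 5.5 in scramble siRNA cells. *Csf1r*, for the receptor of macrophage colony-stimulating factor, read 5318 in *Flcn* siRNA cells and 5375 in scramble siRNA cells. The part of these markers in the *Il1rn* and chemokine values was not tested.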

How the data were processed

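Total RNA of the *Flcn* siRNA and the scramble siRNA culture of RAW264.7 was hybridised to 1 array each (n = 1 per condition). The deposited values are linear signal intensities per probe set, which the authors computed with GCOS (the Affymetrix GeneChip Operating Software), 1 value per probe set and array. Trimmed means of 100 on both arrays show that the values had been scaled to a common level, and no further scaling was applied. Detection calls were not used here. The precision is limited by the number of arrays.

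Of 45101 probe sets, 64 controls, 932 naming several genes and 9160 with no gene symbol from the platform annotation were left out, and 34945 naming 1 gene were kept. Symbols of 34741 were updated by Entrez identifier with the RefSeq table (GRCm38.p6), and 4 list symbols were matched by synonym. Signals were floored at the array median, ratios were log2 with *Flcn* siRNA on top, the brightest probe set by mean signal stood for each gene, and genes needed a mean signal above 13.2. The fold is a ratio of floored intensities and understates the change of low genes. Members and lists were chosen with earlier results of these data known. Named genes were all members, the listed genes past 1.5-fold or the extremes of a list, *Flcn*, *Gpnmb* and the genes nearest in signal, with a few others added after their values were seen. Python 3.11.15, numpy 2.4.6 and pandas 2.3.3 were used, and the steps were tested on simulated data. Alternatives were another scaling, floor, filter, fold limit and choice of probe set.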

Additional observations from a re-analysis of the deposited data

How the results depend on the processing

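Among the members that passed the filter in use, 1 was higher (*Il1rn*) and 0 were lower by the fold limit under every alternative run, and the log2 ratio of *Il1rn* ranged from 1.27 to 1.37. *Casp1* ranged from -0.40 to -0.30, and the members' median from -0.21 to 0. *Il1a*, *Il1r1*, *Il1r2* and *Pycard* could not change the counts of 1 and 0 in any alternative. Without the filter the median floor set their log2 ratios to 0, which also gave the members' median of 0. With a lower floor the filter left them out. For the 74 other pathway genes the counts of 9 higher and 6 lower moved more. With each array divided by its median 5 were higher and 8 lower. With the mean-signal filter raised to the 75th percentile 3 were higher and 2 lower, and with a 2-fold limit 1 was higher and 1 lower. Over all genes, division by the median gave 418 higher and 810 lower, 34.0% higher among those past the limit, against 604 and 570, 51.4%, as reported. Under it *Aim2* (0.55), *Ccl2* (0.50), *Ccl3* (0.56) and *Ccl5* (0.54) were inside the limit, as were *Ccl2* (0.55) and *Ccl5* (0.56) under quantile normalization. With the mean of all probe sets *Nfkbib* (-0.45), *Capn1* (0.35) and *Cxcl1* (0.27) were. For *Nfkbib* and *Cxcl1* this mean took in probe sets below the filter, and any with both signals under the medians counted as 0. The causes of the other shifts were not tested. No paired analysis was possible because each condition had 1 array. With 1 array per condition the spread between cultures is unknown, and *Il1a*, *Il1r1*, *Il1r2* and *Pycard* were below the filter, with folds that depend on the floor: with a floor of 1, *Il1a* was 2.47-fold, *Il1r2* 9.5-fold and *Pycard* 1.58-fold higher in *Flcn* siRNA cells.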
